A study of Mus musculus with 2 samples.

Results

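The Mir302 and Mir367 cluster is a run of 5 miRNA hairpins, Mir302b, Mir302c, Mir302a, Mir302d and Mir367, that was examined here in adult mouse heart. The 5 genes were chosen by name, out of 2202 miRNA genes in the count tables, with their counts in these libraries and the difference between the replicates already known. Their levels and the replicate difference are therefore described and carry no test. Small RNA from heart tissue of male 5xFAD/CAST mice, 8 to 10 months old, was sequenced in 2 libraries, labelled biological replicates 1 and 2 of the same group. 5xFAD mice carry human transgenes with familial Alzheimer's disease mutations and are used as a model of brain amyloid, and CAST denotes a strain derived from wild mice. The labels give both libraries the same 5xFAD/CAST genotype, and no non-transgenic or other-tissue library was compared. The labels give both the same donor entry and separate biosample entries, and nothing says that they came from different animals. The spread between them may thus be technical.

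The cluster is known as a signature of pluripotency. In embryonic stem cells and the early embryo its hairpins are cut from a shared primary transcript that Oct4 and Sox2 switch on, and the transcript is lost as cells differentiate. Some mature miR-302 molecules share a seed with some miRNAs of the miR-290 to miR-295 cluster, the other main miRNA cluster of mouse embryonic stem cells. The miR-302 molecules act on cell cycle and TGF-beta pathway genes. In the heart the cluster is known from development, where it promotes cardiomyocyte proliferation through the Hippo pathway. In bulk tissue, a change in the number of cells that carry an RNA and a change in the amount per cell cannot be told apart.

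On mm10 the hairpins span chr3:127545228-127545807, a stretch of 580 bases on the plus strand, with gaps of 61, 65, 59 and 43 bases between neighbours. They lie in intron 8 of Larp7, the gene of an RNA-binding protein that stabilises the 7SK RNA. Larp7 (ENSMUSG00000027968.11, chr3:127536714-127553349) is on the minus strand, so the hairpins run against their host. Intron 8 of the full-length transcript, which has 13 exons, is 1547 bases long. Mir302b starts 949 bases from exon 9, and Mir367 ends 18 bases short of exon 8. None of the exons of the 4 annotated Larp7 transcripts overlaps the cluster. The only other annotated miRNA gene within 1000000 bases, Gm44494, lies 63980 bases away and had 0 counts in both libraries.

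**Figure D1:**
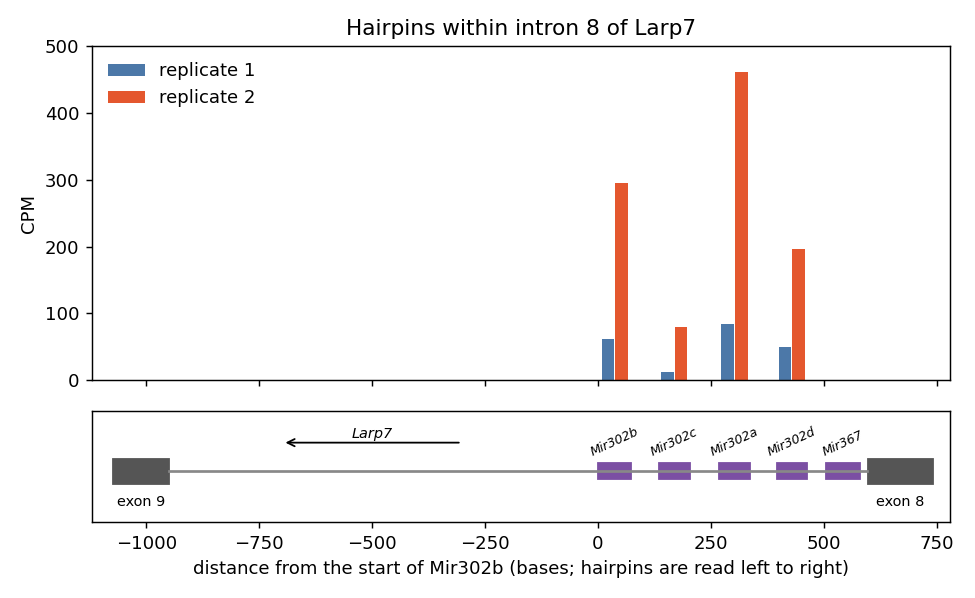
Level of each hairpin in CPM (upper panel, linear axis) above its place in intron 8 of Larp7 (lower panel; horizontal axis, distance in bases from the start of Mir302b; purple boxes, hairpins; grey boxes, Larp7 exons; arrow, direction of Larp7). Mir302a, the third hairpin in order, was the highest in both libraries, and no bar stands over Mir367, which had 0 counts.

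The 5 hairpins are printed first because what they share bears on how their reads could be counted. Sequences are those of RefSeq for GRCm38.p6, the build that mm10 names, and all 5 hairpins matched at the same coordinates. They are reference sequences and were not read from the 5xFAD/CAST mice. Whether strain differences alter the hairpins, or the alignment of their reads, was not tested. Capitals mark the longest stretch common to all 4 Mir302 hairpins.
Mir302b (chr3:127545228-127545301, plus strand): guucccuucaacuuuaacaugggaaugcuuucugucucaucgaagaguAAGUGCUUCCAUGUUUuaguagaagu
Mir302c (chr3:127545363-127545430, plus strand): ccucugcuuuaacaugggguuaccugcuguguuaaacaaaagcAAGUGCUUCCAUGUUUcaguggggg
Mir302a (chr3:127545496-127545564, plus strand): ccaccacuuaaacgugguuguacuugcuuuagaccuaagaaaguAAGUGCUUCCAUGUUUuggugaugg
Mir302d (chr3:127545624-127545689, plus strand): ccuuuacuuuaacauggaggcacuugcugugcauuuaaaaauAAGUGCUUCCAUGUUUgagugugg
Mir367 (chr3:127545733-127545807, plus strand): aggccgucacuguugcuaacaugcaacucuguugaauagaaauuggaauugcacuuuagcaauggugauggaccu

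The 4 Mir302 hairpins share a run of 16 bases, which lies in the 3p arm and is found in none of the other 1001 RefSeq hairpins. Mir302a and Mir302b share more, 20 bases in a row. Mir302d shares 17 bases with each of them, and Mir302c shares 16 with the other three. Mir367 is unrelated by this measure, with at most 9 bases in common with a Mir302 hairpin. Outside the cluster, the longest run shared with any RefSeq hairpin was 11 to 13 bases. The predicted folding energies were -31.7 kcal/mol for Mir302a, -28.6 for Mir302c, -27.5 for Mir302d, -23.3 for Mir302b and -34.5 for Mir367.

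The mature arms show which end of each hairpin is the shared one. In the lines that follow, capitals mark the seed, bases 2 to 8, through which a miRNA pairs with its targets. RefSeq held 9 arms, and miR-302a-3p is named only.
miR-302b-5p: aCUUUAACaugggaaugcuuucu
miR-302b-3p: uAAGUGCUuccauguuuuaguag
miR-302c-5p: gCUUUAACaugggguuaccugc
miR-302c-3p: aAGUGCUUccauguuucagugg
miR-302a-5p: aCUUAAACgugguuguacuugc
miR-302d-5p: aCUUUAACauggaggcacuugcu
miR-302d-3p: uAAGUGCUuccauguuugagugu
miR-367-5p: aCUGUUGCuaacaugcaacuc
miR-367-3p: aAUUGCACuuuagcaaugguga

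On the 3p side, miR-302b and miR-302d carry the seed AAGUGCU, and the annotated miR-302c-3p begins a base later, so that its bases 2 to 8 read AGUGCUU. On the 5p side, miR-302b, miR-302c and miR-302d share CUUUAAC, while miR-302a-5p has CUUAAAC. The 3p arms become distinct late. Read from its 5′ end, miR-302b-3p occurs in a single hairpin only from 19 bases on, miR-302d-3p from 18 and miR-302c-3p from 17. The 5p arms of Mir302a and Mir302c were distinct from 8 bases, those of Mir302d and Mir302b from 13 and 14, and both arms of Mir367 from 9. Reads that aligned to several places were given to no gene by the deposited counting, and they made up 42.3% of all reads in replicate 1 and 46.8% in replicate 2. Mir302 reads too short to pass these lengths could fall into that class. The lengths were sought among RefSeq hairpins only, so longer reads could also align to other places in the genome. How many Mir302 reads aligned to several places is not known, since the deposited counts hold no read lengths. The arms of a hairpin were counted together.

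Both libraries were deep enough to count the 4 Mir302 hairpins, with as few as 48 counts for Mir302c in replicate 1. Reads given to miRNA genes on the sense strand, the strand of the hairpin, summed to 3889280 in replicate 1 and 5058613 in replicate 2, and levels are counts scaled to a sense total of 1000000 (CPM). A count of 0 allows up to 3 counts, or 0.771 and 0.593 CPM. Intervals and this limit cover counting error only, since the reads come from PCR and no molecular identifiers are recorded in the sources used here. The tissue label fits its markers in both libraries, with the cardiac muscle genes Mir208a at 3885 and 1485 CPM and Mir499 at 2732 and 5888 CPM in replicates 1 and 2, and the endothelial Mir126a at 87115 and 87787 CPM.

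Of the 5 hairpins 4 were detected, which means 10 or more counts in each library, against 14.8% of all 2202 miRNA genes. Together they had 816 counts in replicate 1 and 5219 in replicate 2, or 210 and 1032 CPM, a mean of 621 ± 581 CPM (SD, n = 2). The cluster thus took 0.0210% of sense counts in replicate 1 and 0.103% in replicate 2. All counts of the members lay on the sense strand. The column that ignores strand held the same counts for each hairpin, and the opposite strand held 0.

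Mir302a (ENSMUSG00000065552.1) led the cluster, with 330 counts in replicate 1 and 2330 in replicate 2. Its level was 84.8 CPM (95% Clopper-Pearson interval 75.9 to 94.5) and 461 CPM (442 to 480), a mean of 273 ± 266 CPM. Mir302b (ENSMUSG00000076252.1), the first hairpin of the transcript, had 242 and 1491 counts, or 62.2 and 295 CPM, a mean of 178 ± 164 CPM. These 2 hairpins stood at ranks 93 and 113 by mean level among the 325 detected miRNA genes.

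Mir302d (ENSMUSG00000065447.1) followed with 196 and 992 counts, or 50.4 and 196 CPM, a mean of 123 ± 103 CPM. Mir302c (ENSMUSG00000065482.1) was the lowest of the detected hairpins, with 48 and 406 counts, or 12.3 and 80.3 CPM, a mean of 46.3 ± 48.0 CPM. They stood at ranks 123 and 166. Replicate 2 was the higher library for each of the 4 hairpins.

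Mir367 (ENSMUSG00000065413.2), the last hairpin of the cluster and the source of a miRNA with a different seed, had 0 counts in both libraries and on both strands. Against the 5219 counts of its neighbours in replicate 2, a count of 0 allows a share of up to 0.0575% of the cluster by the limit of 3 counts. In replicate 1 the limit was 0.368%. The upper Clopper-Pearson bounds, which the plot of shares uses, were 0.0707% in replicate 2 and 0.451% in replicate 1. Mir367 shares no run of 18 bases with another RefSeq hairpin. Sharing with places other than hairpins, and differences of the CAST strain from the reference sequence, were not tested.

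**Figure D2:**
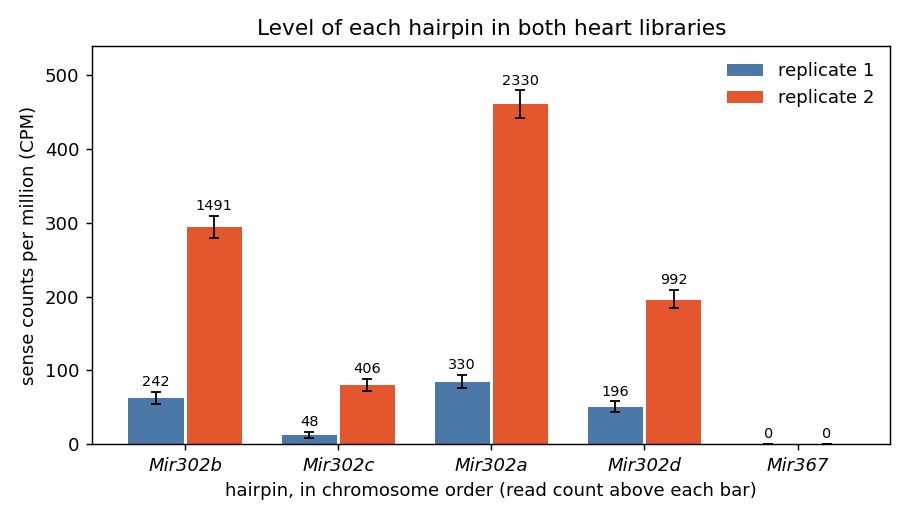
Sense-strand level in CPM of the 5 hairpins in chromosome order (linear axis) in replicate 1 (blue) and replicate 2 (red). Error bars are 95% Clopper-Pearson intervals for counting error, and the number above each bar is its read count. The intervals of the 2 libraries do not overlap for any of the 4 Mir302 hairpins.

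The order of the levels was Mir302a, Mir302b, Mir302d, Mir302c and Mir367 in both libraries. The ranges of Mir302a, Mir302b and Mir302d over the libraries overlapped, and those of Mir302b and Mir302d overlapped that of Mir302c, so these levels did not differ beyond their spread. The ranges of Mir302a and Mir302c did not overlap, but came close, with 84.8 CPM for Mir302a in replicate 1 and 80.3 CPM for Mir302c in replicate 2.

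Within a library, where the shared level drops out, the order was clearer. Mir302a exceeded Mir302b by 1.36 times in replicate 1 (exact 95% interval 1.15 to 1.62) and by 1.56 times in replicate 2 (1.46 to 1.67), a mean of 1.46 ± 0.141. Mir302b exceeded Mir302d by 1.23 times (1.02 to 1.498) and 1.503 times (1.39 to 1.63). Mir302d exceeded Mir302c by 4.08 times (2.96 to 5.72) and 2.44 times (2.17 to 2.75). The level did not follow the order on the chromosome, since Mir302c, between Mir302b and Mir302a, was the lowest of the 4. Mir302a and Mir302b, the highest, are also the pair with the longest shared run, and the part of multiply aligned reads in this order was not tested.

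The composition of the cluster was similar in both libraries, while its sum was not. Mir302a made up 40.4% of the cluster's counts in replicate 1 (37.1 to 43.9, Clopper-Pearson) and 44.6% in replicate 2 (43.3 to 46.0), a mean of 42.5% ± 2.97. Mir302b made up 29.7% (26.5 to 32.9) and 28.6% (27.3 to 29.8). Mir302d made up 24.02% (21.1 to 27.1) and 19.0% (17.95 to 20.1), and Mir302c 5.88% (4.37 to 7.72) and 7.78% (7.07 to 8.54). The share of Mir302d was the one whose intervals did not overlap, with a difference of -5.01 percentage points (replicate 2 minus replicate 1). The differences of Mir302b, Mir302c and Mir302a were -1.09, 1.897 and 4.20 points, with overlapping intervals. Overlap of intervals is not a test of difference, and shares of the same sum cannot shift for a single hairpin alone.

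**Figure D3:**
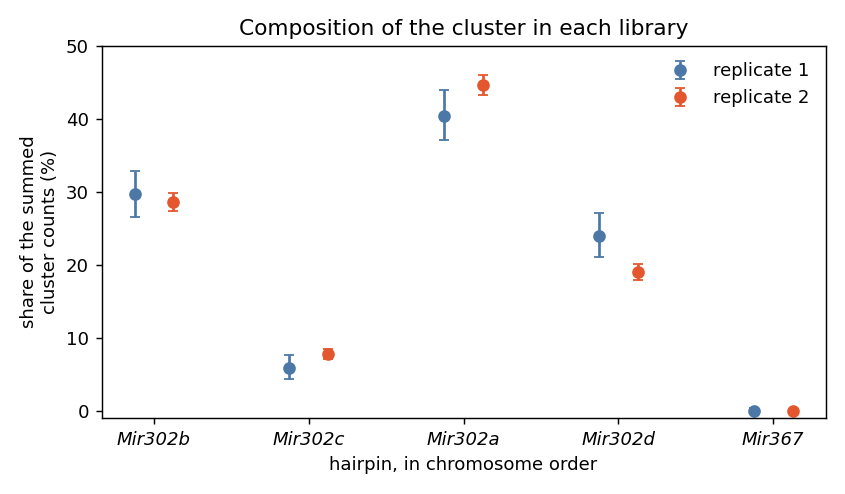
Share of each hairpin in the summed counts of the cluster, in percent, for replicate 1 (blue) and replicate 2 (red), with 95% Clopper-Pearson intervals as bars. Mir302a was at 40.4% and 44.6% and Mir302d at 24.02% and 19.0%.

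The cluster differed more between the libraries than most miRNA genes did. After TMM scaling, which sets the libraries to a common level over all 412 genes with a sum of at least 10 counts, the summed cluster was 5.35 times as high in replicate 2 as in replicate 1 (exact 95% interval 4.97 to 5.76). The scaled ratio was 7.07 for Mir302c (5.23 to 9.75), 5.90 for Mir302a (5.26 to 6.65), 5.15 for Mir302b (4.49 to 5.93) and 4.23 for Mir302d (3.63 to 4.96). On the log2 scale, with 1 CPM added to both levels, these differences were 2.72, 2.55, 2.35 and 2.06, with a median of 2.45, against a median of 0.0016 over the detected genes.

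By this log2 ratio all 4 detected hairpins were at least 2-fold higher in replicate 2, against 7.52% of the 412 genes, and all 4 were at least 4-fold higher, against 1.94%. The members were proposed with this contrast in view, and nothing is read from these counts. Mir302d was near the 4-fold line, at 4.17-fold on this scale, and fell short of it in 3 of 7 other settings, the lowest being 3.71-fold with all reads as library size. The 1.94% are 8 genes, the 4 hairpins among them. The other 4, named after their values were seen, were Mir205, with 0 and 49 counts, Mir26a-2, with 131 and 1559, Mir200b, with 35 and 223, and Mir21a, with 5022 and 28492. The hairpins held ranks 2, 3, 4 and 7 by log2 ratio among the 325 detected genes. In the other direction 2 of the 412 genes were at least 4-fold higher in replicate 1.

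**Figure D4:**
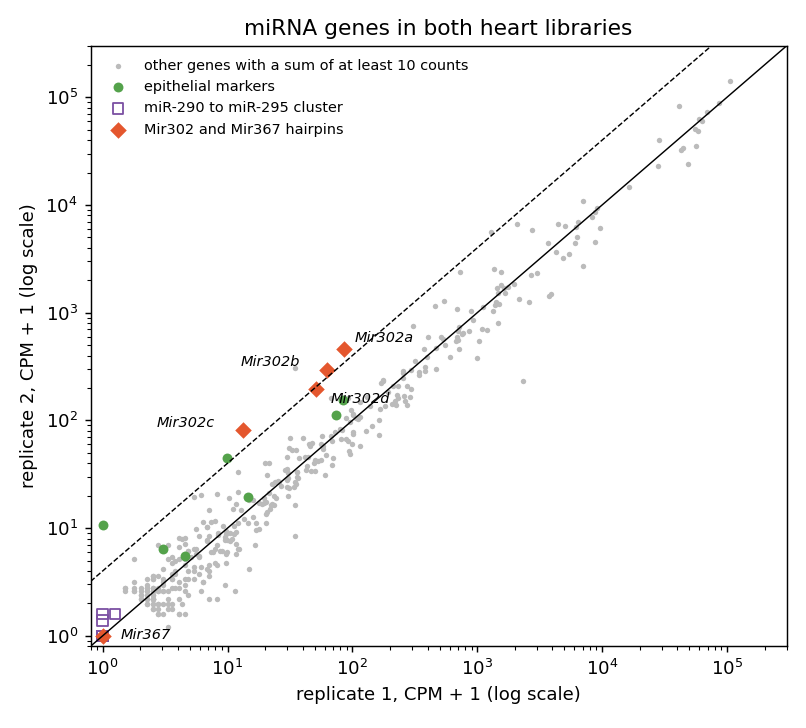
Level of each miRNA gene in replicate 1 (horizontal) and replicate 2 (vertical), as CPM + 1 on log axes without TMM scaling. The solid line marks equal levels and the dashed line a 4-fold higher level in replicate 2. Mir302c, Mir302a and Mir302b lie above the dashed line and Mir302d just below it, and Mir367 lies with the miR-290 to miR-295 genes at the lower left corner.

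The genes most like the cluster were sought in 2 ways over the 2 libraries, among detected genes outside it. By log2 ratio, against 2.41 for the summed cluster, the nearest were Mir200b at 2.29, an epithelial miRNA gene, Mir21a at 2.25, a miRNA gene of stressed and fibrotic tissue, Mir298 at 1.97, Mir511 at 1.84 and Mir674 at 1.82. Their levels ranged from 4.37 CPM for Mir298 to 1291 CPM for Mir21a in replicate 1. By distance of log2(CPM + 1) in both libraries, the nearest were Mir1839 at 0.708, Mir31 at 1.14, Mir16-1 at 1.23, Mir29c at 1.40 and Mir335 at 1.42. With 2 libraries, likeness in ratio is a single value per gene.

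The miR-290 to miR-295 cluster, whose miRNAs are typical of mouse embryonic stem cells, was at or near 0. Its 9 genes had 1 count in replicate 1 and 8 in replicate 2. Of these genes 0 of 9 were detected, against 14.8% of all 2202 miRNA genes. In replicate 1 the count was a read of Mir294. In replicate 2 Mir293 and Mir294 had 3 counts each and Mir292 had 2, while Mir290a, Mir290b, Mir291a, Mir291b, Mir292b and Mir295 had 0 in both libraries. The Mir302 hairpins thus had 816 times the counts of that cluster in replicate 1 and 652 times in replicate 2. Both ratios rest on few counts of that cluster, 1 and 8, and carry no interval. Of the 11 pluripotent cell markers, which are the 5 hairpins and 6 genes of the miR-290 to miR-295 cluster, 4 were detected, the Mir302 hairpins themselves.

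Few counts came from other holders of the 3p seed. Beside the Mir302 arms, the seed AAGUGCU is held by 3 arms in the RefSeq table, all from that cluster, and their hairpins had 1 count in replicate 1 and 3 in replicate 2. They are shown to set the common seed, in capitals, beside the bases that differ.
miR-291a-3p: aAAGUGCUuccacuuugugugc
miR-294-3p: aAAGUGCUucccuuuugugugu
miR-295-3p: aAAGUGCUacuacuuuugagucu

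The seed of Mir367, by contrast, was well represented through other genes. AUUGCAC is shared by 6 other hairpins of the miR-25 and miR-92 group, which are widely expressed in dividing and adult tissues. All 6 were detected, with 7274 counts in replicate 1 and 5743 in replicate 2. Mir92-1 was the highest at 1468 and 806 CPM, and Mir363 the lowest at 3.09 and 7.12 CPM. Mir92-1 and Mir92-2 give the same mature sequence, and reads that aligned to both places were given to no gene. Their counts, and the sum, would leave out such reads, so their levels and split are uncertain. Of the 6, 2 were higher in replicate 2 and 4 lower, from -0.83 to 1.09 on the log2 scale.
miR-25-3p: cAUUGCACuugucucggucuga
miR-32-5p: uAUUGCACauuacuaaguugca
miR-92a-3p: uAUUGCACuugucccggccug
miR-92b-3p: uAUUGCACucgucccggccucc
miR-363-3p: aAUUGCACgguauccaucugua

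The miR-17 relatives, whose seed holds the same bases shifted by a position and which drive proliferation from the miR-17-92 cluster and its paralogs, were also abundant. All 6 were detected, against 14.8% of all 2202 miRNA genes, with 4915 and 4320 CPM in sum. Mir93 led at 2693 and 2245 CPM, followed by Mir17 at 930 and 851 CPM. Their log2 ratios lay between -0.93 for Mir106a and 1.00 for Mir20b, with a median of -0.07. The 4 most abundant, Mir93, Mir17, Mir20a and Mir106b, lay between -0.14 and 0.24.

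**Figure D5:**
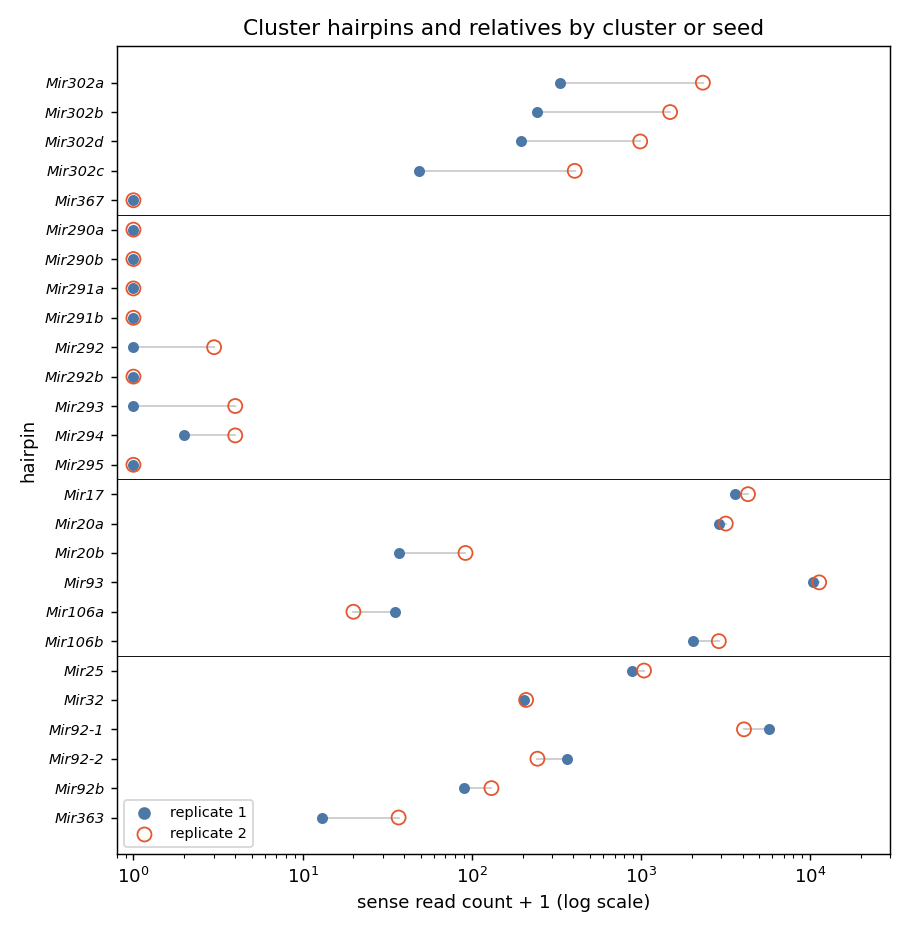
Sense read counts plus 1 (log axis) of the 5 cluster hairpins, the miR-290 to miR-295 cluster, the miR-17 relatives and the miR-25/92 relatives, from top to bottom, in replicate 1 (filled) and replicate 2 (open). Counts are not scaled for depth, and replicate 2 is the deeper library. The Mir302 hairpins are the upper rows with the widest gaps, and 6 of the 9 genes of the second block are at 0 in both libraries.

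Markers of other cell types were read beside the cluster. The epithelial list was also higher in replicate 2, with summed levels of 184 and 347 CPM. All 7 genes were tested and 7 were higher, with a median log2 ratio of 0.99, against -0.0077 over the 412 tested genes. Their log2 ratios ran from 0.37 for Mir141 to 3.47 for Mir205, which had 0 and 49 counts. Of the 7, 5 were detected, against 14.8% of all 2202 miRNA genes. At least 2-fold higher were 3 of the 7, against 7.52% of the 412 genes. The list was chosen with earlier results known, and nothing is read from its counts. The sum of the cardiac muscle list was 6731 and 7430 CPM, with Mir208a and Mir208b lower and Mir499 higher in replicate 2. Sums were 30137 and 41747 CPM for smooth muscle, 1957 and 1789 CPM for leukocytes and 320 and 217 CPM for red cells. The neuronal list, at 220 and 161 CPM, came almost wholly from Mir128-1 and Mir137. Mir124a-1, Mir124a-2, Mir124a-3 and Mir9-2 had 0 counts in both libraries, Mir9-1 had 0 and 1, and Mir9-3 had 0 and 3. Reads that aligned to several copies of Mir124a or Mir9 would have been given to no gene, so these low counts do not show absence. For testis X-linked genes the sums were 3 and 6 counts. The part that a different mix of cells, or any step of library preparation, had in the Mir302 difference was not tested.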

How the data were processed

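MicroRNA-seq of heart tissue was analysed in 2 libraries of 1 group. The deposited tables hold raw read counts per miRNA gene for 2202 genes, with a column that ignores strand and a column for each strand, as judged from their layout and values. Text files that the authors deposited beside the counts give the build as mm10 and the annotation as GENCODE M21. The aligner is not given in the sources used here, and the size range label is below 30, with no unit. Lines for unmapped, multiply aligned and unassigned reads (64.1% and 64.4% of reads) stayed out of library sizes.

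The strand column with the larger total was taken as sense. TMM factors came from edgeR 4.0.16, over genes whose counts summed to 10 or more, and alternative factors from DESeq2 1.42.0 (R 4.3.3). The ratio step was also run on simulated counts with equal numbers of genes raised in each library. Their spread was not matched to these libraries, so that run is not used as support here. Exact intervals used SciPy 1.17.1, and folding energies ViennaRNA 2.7.2. With 1 group, no test of conditions was possible and none was run.

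All 2202 identifiers matched GENCODE M21, and 1036 symbols matched RefSeq hairpins directly or by an older name. The members, relatives and marker lists were chosen with earlier results of these data known. Genes named by rule are all members, all list genes used, hairpins sharing a seed and miRNA genes within 1000000 bases. The 5 nearest genes by log2 ratio and by level were named by rule too. The other genes at least 4-fold higher in replicate 2 were named after their values were seen.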

Additional observations from a re-analysis of the deposited data

How the results depend on the processing

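With other scalings, pseudocounts of 0.1 and 5 CPM and the column that ignores strand, the log2 ratio of the summed cluster kept its direction and lay between 2.27 and 2.46. It left its counting interval with total-count scaling, at 2.29, and with all reads as library size, at 2.27. Mir302d ranged from 1.89 to 2.11 and was under 4-fold in 3 of 7 alternatives. The other 3 hairpins stayed above 4-fold in all 7. The cluster level was 210 CPM without replicate 2 and 1032 CPM without replicate 1. With 1 or 5 counts as the minimum 4 members were detected, and with 50 counts 3, since Mir302c had 48 in replicate 1. The genes at least 2-fold higher in replicate 2 numbered 24 to 38, and those at least 4-fold higher 7 to 9, over the other filters, scalings and the column that ignores strand. Depth limits Mir302c in replicate 1 and every statement on Mir367 and the miR-290 to miR-295 genes. No paired analysis was possible because the libraries form a single group.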
